A study of Homo sapiens with 6 samples.

Results

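A set of 10 chaperone genes was examined in erlotinib-tolerant lung cancer cells. They were the small heat shock protein genes HSPB1, HSPB8 and CRYAB, the HSP70 genes HSPA8 and HSPA9, the HSP70 co-chaperone genes BAG3, DNAJA1, DNAJB1 and HSPH1, and the HSP90 gene HSP90AA1. A probe set, the group of probes that reads 1 transcript, was taken for a member when it was assigned to that gene and to no other. This gave 20 probe sets for 9 of the 10 genes, out of 54613 probe sets and 19775 genes tested in all. HSPA8, the constitutive cytosolic HSP70, has no value here, since each of its 4 probe sets is also assigned to small nucleolar RNA genes.

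The cells were PC-9, a human non-small cell lung cancer line that carries an activating EGFR mutation, and all of them carried a GFP vector. The 3 arrays of drug-tolerant persisters (DTPs) read cells kept for 9 days in 2 µM erlotinib, an EGFR kinase inhibitor, which was begun at 80% confluency, and these cells were taken on day 10. The 3 arrays of parental cells read cells in DMSO, which the labels' protocol has taken on day 3 at 100% confluency, whereas the methods and the design text of the series give DMSO for 9 days as well. Which of these accounts holds is not settled here, and if the protocol holds, drug, time in culture and cell density cannot be told apart. DTPs are what survives the drug, so a larger share of cells that express a gene and more of its RNA per cell cannot be told apart either, and rose and fell compare group means only. The labels do not say whether the 3 cultures of a group were separate experiments, so the p-values measure the spread between these samples, which may be technical.

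Chaperones hold or refold proteins that have lost their shape. Small heat shock proteins bind unfolding proteins without using ATP and pass them to HSP70, whose cycle of ATP hydrolysis is driven by J-domain proteins such as DNAJA1 and DNAJB1 and reset by nucleotide exchange factors such as HSPH1 and the BAG proteins. HSPB8, BAG3 and HSP70 together carry misfolded proteins to autophagy. HSP90 takes clients from HSP70 and matures them, among them many kinases, and HSPA9 is the HSP70 of the mitochondrial matrix, which pulls proteins in through the inner membrane and folds them. Much of the cytosolic set is transcribed under heat shock factor 1 (HSF1), which binds repeats of the 5-base unit NGAAN in alternating orientation.

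The promoters of the members are shown because this element is a feature that many chaperone genes share and that is not read from the arrays. RefSeq windows reaching from 250 bases before to 50 bases after an annotated start (GRCh38.p14) were found for 9 of the 10 members and held 12 starts, while CRYAB had none in the table used here. The windows were searched on both strands for the 2-unit motifs GAANNTTC and TTCNNGAA, each its own reverse complement, and for the 3-unit motifs GAANNTTCNNGAA and TTCNNGAANNTTC, each the reverse complement of the other and each overlapping the 2-unit motifs. The printed part runs from 200 bases before to 20 bases after the start, 5′ to 3′ on the gene's strand, and capitals mark the matches. HSPB8, HSPB1 and DNAJA1 are printed as members with large rises, HSP90AA1 as one with a 3-unit match and a small difference, and HSPA9 as the member that fell.
HSPB8, chr12:119178731-119178950, plus strand: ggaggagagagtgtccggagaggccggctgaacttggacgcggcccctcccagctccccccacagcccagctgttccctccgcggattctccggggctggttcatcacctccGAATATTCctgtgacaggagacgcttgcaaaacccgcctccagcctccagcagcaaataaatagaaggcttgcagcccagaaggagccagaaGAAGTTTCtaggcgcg
HSPB1, chr7:76302473-76302692, plus strand: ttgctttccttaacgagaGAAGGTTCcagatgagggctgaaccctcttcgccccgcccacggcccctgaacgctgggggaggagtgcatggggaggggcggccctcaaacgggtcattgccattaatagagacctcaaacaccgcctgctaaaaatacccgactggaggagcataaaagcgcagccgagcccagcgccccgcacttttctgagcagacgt
DNAJA1, chr9:33025073-33025292, plus strand: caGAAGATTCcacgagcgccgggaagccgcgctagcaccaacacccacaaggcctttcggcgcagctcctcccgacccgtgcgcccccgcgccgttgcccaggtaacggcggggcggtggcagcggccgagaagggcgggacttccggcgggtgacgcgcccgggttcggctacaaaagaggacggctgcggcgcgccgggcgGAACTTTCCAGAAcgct
HSP90AA1, second annotated start, chr14:102087025-102087244, minus strand: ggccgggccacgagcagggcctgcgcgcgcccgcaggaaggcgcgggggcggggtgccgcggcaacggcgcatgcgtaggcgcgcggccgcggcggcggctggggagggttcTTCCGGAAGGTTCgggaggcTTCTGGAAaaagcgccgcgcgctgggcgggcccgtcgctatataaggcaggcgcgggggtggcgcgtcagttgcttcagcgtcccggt
HSPA9, chr5:138575382-138575601, minus strand: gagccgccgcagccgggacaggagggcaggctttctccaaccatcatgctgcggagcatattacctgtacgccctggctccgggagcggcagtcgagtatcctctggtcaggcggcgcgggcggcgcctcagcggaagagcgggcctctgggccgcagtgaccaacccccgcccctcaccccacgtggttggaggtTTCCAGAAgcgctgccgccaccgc

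Of the 12 member windows, 8 held a 2-unit match, against 13.5% of all 35116 RefSeq promoters, and 3 held a 3-unit match, against 0.49% of all promoters. GAANNTTC alone lay in 6.77% of all promoters and TTCNNGAA in 7.74%. The 3-unit matches belonged to DNAJA1, HSPA8 and the second start of HSP90AA1. No match was found in the windows of BAG3 and HSPH1, nor at the first starts of DNAJB1 and HSP90AA1. Several of these genes are textbook targets of HSF1, so the shares describe the members and no test was made. The search took exact matches within these windows only, so a window without a match may still hold an element. As given below, DNAJA1, with a 3-unit match, and HSPH1, with no match, both rose. HSP90AA1, with a 3-unit match, stayed below the fold minimum. Whether matches go with the differences was not tested.

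**Figure D1:**
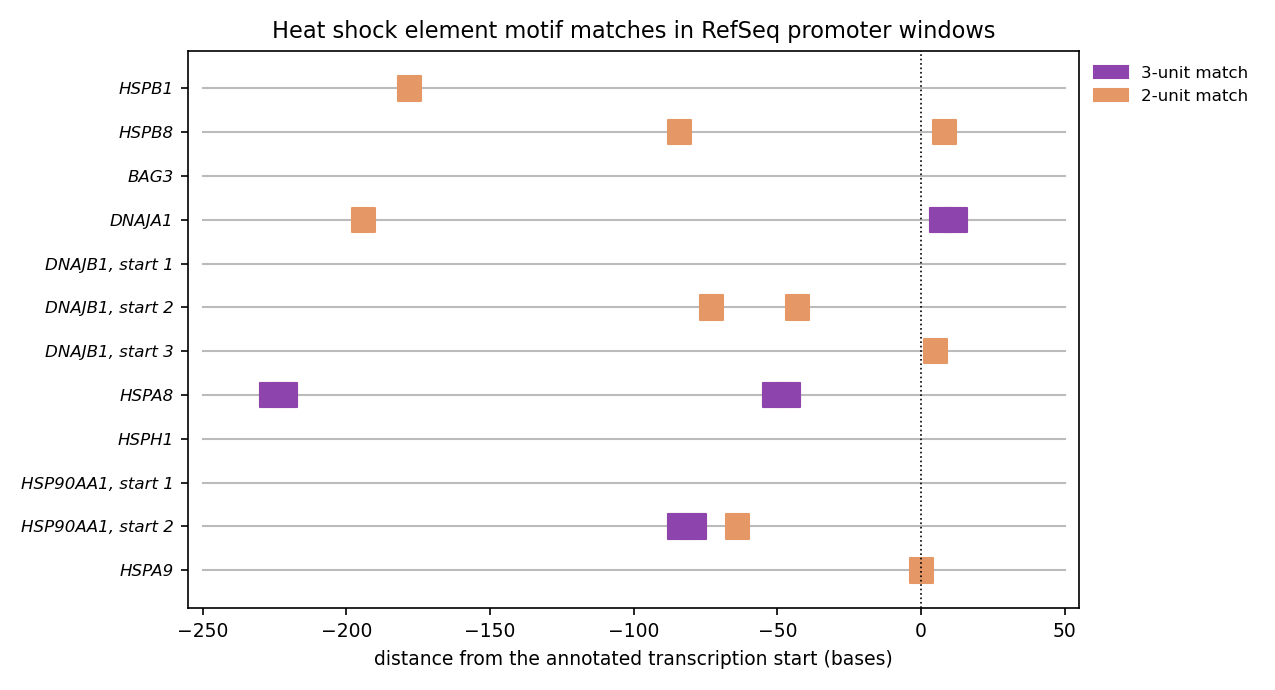
Positions of heat shock element matches in the RefSeq windows of the members. The horizontal axis is the distance in bases from the annotated start (dotted line), each row is 1 start, and boxes are 2-unit or 3-unit matches; 3-unit matches lie in the DNAJA1, HSPA8 and second HSP90AA1 windows only.

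Values are log2 intensities, and a gene is read by its brightest probe set leaving aside those named _x_at, whose probes may bind other transcripts, where the gene has another. A gene was called when the Benjamini-Hochberg adjusted p of limma, taken over all genes, was under 0.05 and the fold was over 1.5. The array medians lay between 7.27 and 7.32, and Pearson's r over all probe sets was between 0.9968 and 0.9979 within groups and between 0.9701 and 0.9754 across them, over probe sets that are not independent replicates. All 8 epithelial markers lay above the median of all probe sets (7.29) in both groups, as did 3 of 8 fibroblast markers. The mean level of the epithelial list was between 12.89 and 12.98 in DTPs and between 12.63 and 12.64 in parental cells, with KRT7 its 1 called gene, at 14.38 ± 0.13 in DTPs and 13.41 ± 0.10 in parental cells (SD, n = 3 each). The mean level of the fibroblast list was between 7.16 and 7.27 in DTPs and between 6.86 and 6.94 in parental cells, with COL1A1 its 1 called gene, at 11.11 ± 0.16 in DTPs and 8.44 ± 0.16 in parental cells (SD, n = 3 each). Without COL1A1 the other 7 fibroblast markers averaged between 6.58 and 6.72 in DTPs and between 6.64 and 6.70 in parental cells, with log2 differences between -0.26 and 0.13 and none called. Of 6 skeletal muscle markers, chosen because CRYAB and HSPB8 are abundant in muscle, 2 (DES and TNNT1) lay above the median in both groups, and none was called. Of the blood markers 2 of 5 lay above it with none called, and of the endothelial markers 3 of 4 with 1 called lower. As a sign of RNA quality, the 3′ minus the 5′ control probe set (log2) was 0.056 ± 0.028 in DTPs and 0.167 ± 0.025 in parental cells for ACTB, and -0.175 ± 0.002 in DTPs and -0.152 ± 0.016 in parental cells for GAPDH (SD, n = 3 each; two-sided exact permutation p = 0.10 for each, the smallest that 3 against 3 arrays allow). The part of these markers and of RNA quality in the differences below was not tested.

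A total of 4 members rose in DTPs, namely HSPB8 (23.2-fold), HSPB1 (2.45-fold), DNAJA1 (2.05-fold) and HSPH1 (1.66-fold), and HSPA9 fell (2.05-fold lower). CRYAB and HSP90AA1 had an adjusted p under 0.05 with too small a fold, and DNAJB1 and BAG3 did not pass the adjusted p. So 4 of the 9 measured members were called higher, where 8.08% of all genes were, and 1 was called lower, where 6.13% of all genes were. Without a fold minimum, 7 of the 9 passed the adjusted p, against 44.5% of all genes. The median log2 difference was 0.48 over the 9 members and -0.05 over all genes, and 8 of the 9 estimates were above 0.

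**Figure D2:**
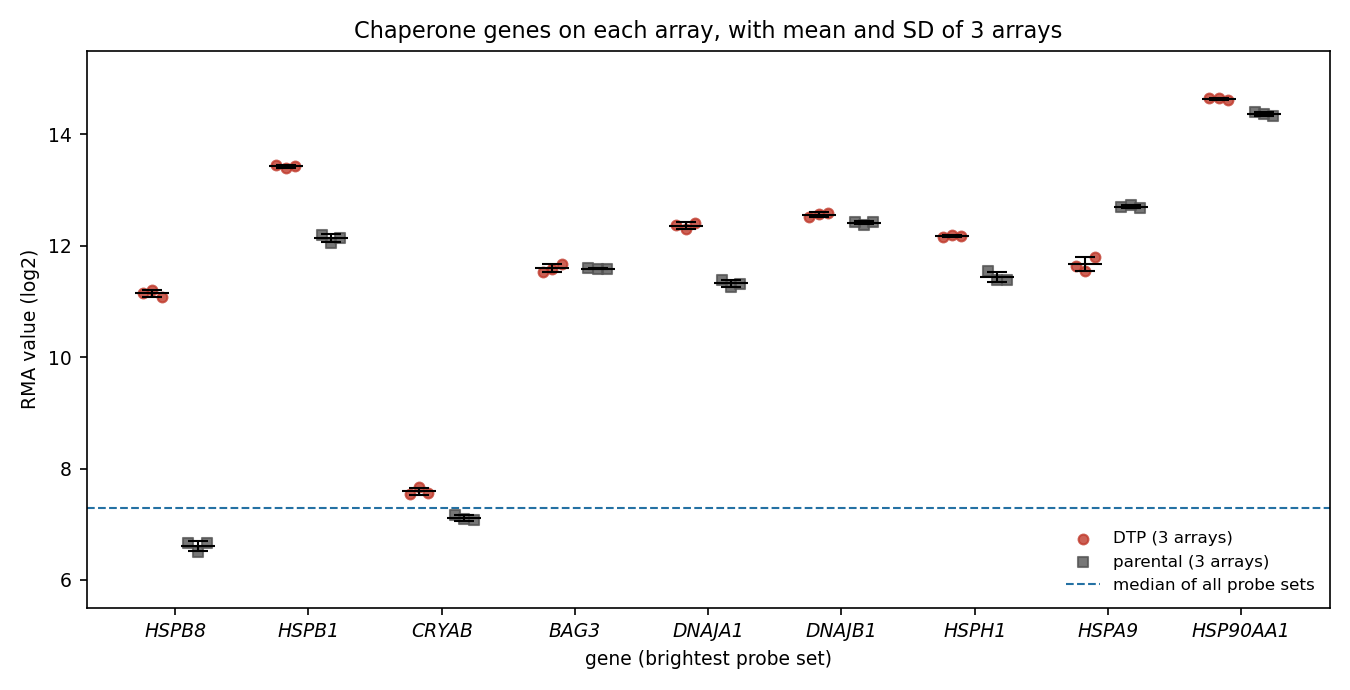
Log2 RMA value of the 9 measured chaperone genes on each array, DTP arrays (circles) left of parental arrays (squares), with the mean and SD of 3 arrays per group; the dashed line is the median of all probe sets. HSPB8 lay below that line in all 3 parental arrays and near 11 in DTPs, and HSPA9 was the 1 gene with all DTP arrays below all parental arrays.

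HSPB8, the small heat shock protein that partners BAG3, had the largest difference among the members. Its probe set 221667_s_at read 11.16, 11.20 and 11.08 in DTPs, against 6.67, 6.50 and 6.66 in parental cells. The groups were thus far apart, and the parental values were under the all-probe-set median, a range in which RMA values understate folds. The log2 difference was 4.54 ± 0.07 (SE; 95% interval 4.38 to 4.69, limma adjusted p = 3.3e-13). Without a detection call it is not known whether the parental level is above background, so this size and its interval are those of the RMA values only. The second probe set of the gene, 233057_at, was dim in both groups, at 7.47, 7.45 and 7.24 in DTPs and 6.99, 7.04 and 6.99 in parental cells. It was higher in every DTP array as well, by 1.30-fold (adjusted p = 0.0024 over probe sets), but was not called, and the mean of both probe sets gave a log2 difference of 2.46. The rule of the brightest probe set took 221667_s_at through its DTP values. In parental cells 233057_at was the brighter, with a mean of 7.01 against 6.61. The difference of 4.54 thus rests on a choice that the DTP arrays made.

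HSPB1, or HSP27, which also binds actin filaments, was bright in both groups. Its only probe set, 201841_s_at, read 13.44, 13.39 and 13.44 in DTPs, against 12.20, 12.06 and 12.14 in parental cells. Every DTP array lay more than a log2 unit above every parental array, and the log2 difference was 1.29 ± 0.07 (SE; 95% interval 1.15 to 1.44, limma adjusted p = 9.0e-09).

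CRYAB, αB-crystallin, which guards intermediate filaments such as desmin, read 7.55, 7.67 and 7.56 in DTPs and 7.16, 7.10 and 7.08 in parental cells. The groups did not overlap, but both lay close to the median of all probe sets. The difference was 0.48 ± 0.07 on the log2 scale (SE; 1.39-fold, limma adjusted p = 8.0e-05), below the fold minimum. With each array centred on its ribosomal protein genes or its spike-in controls, CRYAB was called higher, at 0.59 and 0.63.

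BAG3, the scaffold between HSPB8 and HSP70, was bright and nearly level. It read 11.53, 11.58 and 11.68 in DTPs and 11.59, 11.58 and 11.59 in parental cells, and the groups overlapped. The log2 difference was 0.01 ± 0.07 (SE; 95% interval -0.14 to 0.16, limma adjusted p = 0.92), and its sign was negative without DTP replicate 3 (-0.03). The mRNA of HSPB8 thus rose in DTPs while that of its partner differed by less than the 1.5-fold minimum in either direction over this interval.

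The J-domain protein DNAJA1, which feeds clients to HSP70 and starts its ATP hydrolysis, rose by both of its probe sets. The brighter one, 200881_s_at, read 12.37, 12.29 and 12.41 in DTPs and 11.39, 11.26 and 11.32 in parental cells, a log2 difference of 1.04 ± 0.07 (SE; 95% interval 0.89 to 1.19, limma adjusted p = 9.2e-08). The dimmer one, 200880_at, read 11.03, 11.14 and 11.22 in DTPs and 9.75, 9.61 and 9.77 in parental cells, a 2.68-fold rise. In neither did the groups come near each other.

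DNAJB1, or HSP40, a J-domain protein of the other class that also works with HSP110 in dissolving aggregates, differed little. It read 12.51, 12.58 and 12.59 in DTPs and 12.42, 12.38 and 12.43 in parental cells. The DTP arrays were all above the parental ones, but only by 0.15 ± 0.06 (SE; 1.11-fold, limma adjusted p = 0.082), and the adjusted p ran between 0.0038 and 0.22 over the alternatives tried. Its second probe set, 200664_s_at, differed by 1.16-fold (adjusted p = 0.029 over probe sets), also below the fold minimum.

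HSPH1, or HSP105, a nucleotide exchange factor for HSP70, rose by all 3 of its probe sets. The one taken, 206976_s_at, read 12.15, 12.19 and 12.17 in DTPs and 11.55, 11.38 and 11.39 in parental cells, a log2 difference of 0.73 ± 0.07 (SE; 95% interval 0.58 to 0.89, limma adjusted p = 2.5e-06). The other two, 208744_x_at and 235573_at, each rose 1.77-fold, so a bright and a dim probe set gave much the same difference.

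HSP90AA1, the inducible cytosolic HSP90, was higher in DTPs by a small and even margin. It read 14.65, 14.64 and 14.61 in DTPs and 14.41, 14.37 and 14.33 in parental cells, near the top of the values on these arrays. The log2 difference was 0.27 ± 0.06 (SE; 1.20-fold, 95% interval 0.13 to 0.41, limma adjusted p = 0.0042). Its other 3 probe sets lay between 0.17 and 0.30 above parental cells, and none of the 4 was called.

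HSPA9, or mortalin, was the 1 member called lower. Its probe set 200691_s_at read 11.64, 11.55 and 11.80 in DTPs, against 12.70, 12.72 and 12.68 in parental cells. Every DTP array lay below every parental array, with more spread among DTPs (SD 0.13) than among parental cells (SD 0.02). The log2 difference was -1.03 ± 0.08 (SE; 95% interval -1.20 to -0.87, limma adjusted p = 2.1e-07). Probe sets 200690_at and 200692_s_at fell by 1.03 and 0.96 on the log2 scale and were called too. The fourth, 232200_at, was under the all-probe-set median, overlapped between the groups and was not called (log2 difference -0.18, adjusted p = 0.16 over probe sets).

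**Figure D3:**
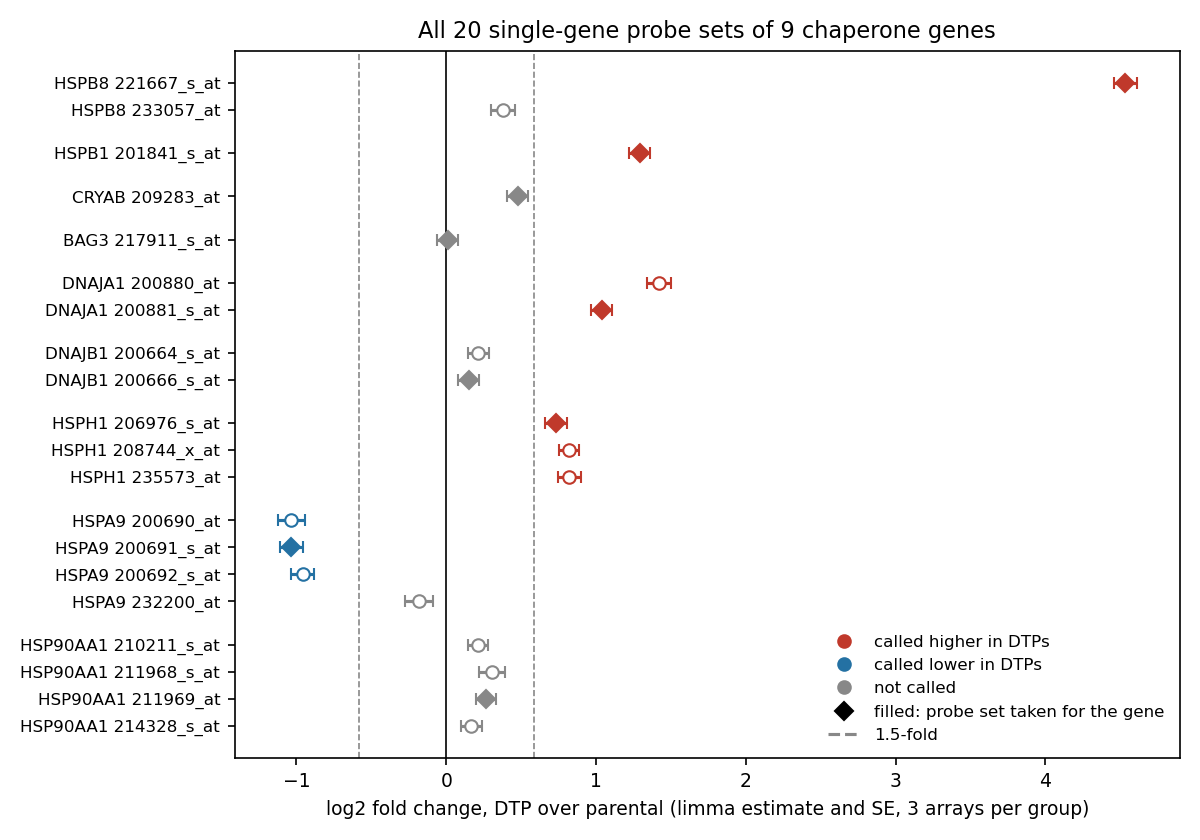
Log2 difference, DTP over parental, of all 20 single-gene probe sets of the 9 measured genes, with limma's SE from 3 arrays per group; diamonds are the probe sets taken for the gene and dashed lines mark 1.5-fold. All 3 HSPH1 and both DNAJA1 probe sets were called higher, 3 of 4 HSPA9 probe sets lower, and HSPB8 was split between 4.54 and 0.38.

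Over the 20 member probe sets, 7 were called higher, where 7.56% of all probe sets were, and 3 lower, where 4.93% were. A further 6 passed the adjusted p without reaching the fold minimum, so that 16 of 20 passed it in all, against 38.7% of all probe sets. The median log2 difference was 0.29 over the member probe sets and -0.05 over all probe sets. Ordered by the difference, the genes ran HSPB8, HSPB1, DNAJA1, HSPH1, CRYAB, HSP90AA1, DNAJB1, BAG3 and HSPA9. Set relative to each gene's parental mean, the DTP arrays of no neighbouring pair in this order overlapped. This leaves out the spread of the parental arrays, and the differences between neighbours were not tested.

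The genes most like HSPB8 over the 6 arrays, by root mean square distance of log2 values taken relative to each gene's parental mean, were EDIL3 (distance 0.165, log2 difference 4.47), RASGRP1 (0.166 and 4.66) and VGLL3 (0.176 and 4.34). Those most like HSPA9 were CGRRF1 (distance 0.0251, log2 difference -1.01), PFDN2 (0.0354 and -1.02) and ARFGEF3 (0.0364 and -1.03). This distance takes in the log2 difference itself, so genes with a near-equal difference lie close by it, and shared behaviour beyond that was not tested.

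A total of 10 further lists covered the regulators, relatives and clients of these chaperones, and 103 of their 116 genes were measured. Of these, 11 were called higher, 8 lower and 84 neither, beside the 8.08% higher and 6.13% lower of all genes. No gene of the heat shock factor list was called, other than HSF2BP under centring on spike-ins. The list's median was 0.32 with centring on ribosomal protein genes and 0.35 on spike-ins. All 5 measured genes of that list passed the adjusted p, as 44.5% of all genes did, with small differences of both signs (median log2 difference 0.20), from HSF1, the main activator of the heat shock response, which read 10.86, 10.89 and 10.90 in DTPs and 11.05, 11.17 and 11.09 in parental cells (-0.22 ± 0.07, SE, limma adjusted p = 0.017), to HSF2BP, which binds HSF2, at 0.45 ± 0.07 (limma adjusted p = 2.0e-04). None of the 6 measured of 7 other small heat shock proteins was called either, and their median was -0.01, turning to 0.02 under cyclic loess and to 0.11 and 0.14 under the centrings. The member of that list with the smallest p was HSPB9, whose known expression is in testis, and which was dim in both groups (-0.20 ± 0.07, limma adjusted p = 0.024). All 6 lay near or below the all-probe-set median, with group means from 5.71 (HSPB9 in DTPs) to 7.38 (HSPB2 in parental cells). Without a detection call, an absent difference in them cannot be told from an absent signal. Of the small heat shock proteins measured, HSPB8 and HSPB1 were called higher, with a smaller difference in CRYAB.

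Among the 8 measured of 10 other HSP70 and HSP110 genes of the cytosol and nucleus, 2 rose, none fell and 6 were not called. HSPA1A and HSPA1B were not among those measured, so nothing is said of them here. HSPA2, an HSP70 best known from spermatogenesis, read 10.28, 10.40 and 10.30 in DTPs, against 6.74, 6.63 and 6.51 in parental cells, a 13.0-fold rise (log2 difference 3.70 ± 0.08, SE, limma adjusted p = 3.7e-12). As for HSPB8, its parental values were under the all-probe-set median, and the same limit holds. HSPA4L, an HSP110, rose 2.05-fold by its brighter probe set, and its second probe set was called as well. The list's median was -0.09, and it was above 0 with centring on ribosomal protein genes (0.02) or spike-ins (0.06).

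The 18 measured genes of the other J-domain proteins held 3 that rose and 1 that fell, with a median of -0.10 that likewise turned above 0 under both centrings (0.01 and 0.04). DNAJB2, a neuronal J-domain protein that sorts clients to the proteasome, rose 2.43-fold, DNAJC6, an auxilin that recruits HSC70 to clathrin coats, 1.81-fold, and DNAJB6, which suppresses aggregation, 1.51-fold. DNAJB6 lost its call without DTP replicate 3 (log2 difference 0.53) and with array weights (0.56), and DNAJC6 lost its call with the mean of both its probe sets (0.45). The parental mean of DNAJC6 (6.87) was under the all-probe-set median, so the limit given for HSPB8 holds for it too. DNAJA3, the J-domain partner of HSPA9 in mitochondria, fell 1.74-fold by its brighter probe set, and both of its probe sets were called.

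Of 9 other BAG proteins and HSP70 regulators, 1 rose and 1 fell, with a median of 0.02, or 0.14 and 0.17 under the centrings. BAG1, which links HSP70 to the proteasome, read 9.83, 10.10 and 10.00 in DTPs and 8.89, 8.76 and 8.96 in parental cells, a 2.16-fold rise (limma adjusted p = 2.7e-07) that all 3 of its probe sets showed. BAG2, which inhibits the ubiquitin ligase CHIP, was 1.52-fold lower, close to the minimum. Its call was lost when DTP replicate 1, DTP replicate 2 or parental replicate 3 was left out (log2 differences -0.55, -0.58 and -0.58) and under cyclic loess (-0.56) and both centrings (-0.49 and -0.46), and the mean of its 3 probe sets was -0.03. Of the BAG proteins, BAG3 was thus level where BAG1 was more abundant.

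Of the 16 measured HSP90 genes and co-chaperones, 1 rose, AHSA2P, a pseudogene related to the HSP90 activator AHSA1, at 2.61-fold (limma adjusted p = 6.0e-08). None fell, and the median was 0.16, or 0.27 and 0.31 under the centrings. Under centring on ribosomal protein genes 3 of the 16 were called higher, and under centring on spike-ins 4.

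Genes of mitochondrial co-chaperones, protein import and a protease fell as well as HSPA9. Of 12 other mitochondrial chaperones and proteases, 4 fell, 1 rose and 7 were not called, and the median was -0.48, or -0.36 and -0.33 under the centrings. GRPEL2, a nucleotide exchange factor of mitochondrial HSP70, read 9.77, 9.82 and 9.97 in DTPs, against 11.34, 11.26 and 11.15 in parental cells, which is 2.63-fold lower (limma adjusted p = 1.8e-08). TIMM44, which tethers HSPA9 to the import channel, was 2.52-fold lower and the protease LONP1 2.26-fold lower. DNAJC19, a J-domain protein of the inner membrane, was 1.70-fold lower, and it lost its call with the mean of its probe sets (-0.56). The 1 gene that rose was HSPE1, or HSP10, at 12.42, 12.48 and 12.52 in DTPs and 11.88, 11.69 and 11.70 in parental cells (1.64-fold, limma adjusted p = 5.2e-06). Its partner in the mitochondrial chaperonin, HSPD1 or HSP60, was level by the probe set taken, at -0.03 ± 0.06 on the log2 scale (limma adjusted p = 0.73), and the groups overlapped. Without DTP replicate 3, 6 of the 12 were called lower.

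Of the 12 measured subunits of the cytosolic chaperonin TRiC and of prefoldin, which fold actin and tubulin, 1 was called, PFDN2, which was 2.03-fold lower (limma adjusted p = 1.1e-07), and the median was -0.20, or -0.08 and -0.05 under the centrings. The 9 measured partners of HSPB8 and BAG3 in chaperone-assisted autophagy had a median of 0.39, or 0.50 and 0.53 under the centrings, with 3 called higher under each centring. WIPI1, which acts in autophagosome formation, rose 2.37-fold and VPS18, a subunit of the complexes that tether vesicles to lysosomes, rose 2.00-fold. MAP1LC3B, which coats the autophagosome, read 11.76, 11.70 and 11.78 in DTPs and 12.61, 12.70 and 12.62 in parental cells, 1.86-fold lower (limma adjusted p = 2.1e-07). The list thus held called genes in both directions.

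Among the 8 measured intermediate filament and actin genes, whose products small heat shock proteins bind, VIM alone was called (2 of 8 under centring on spike-ins), with a list median of 0.14, or 0.26 and 0.29 under the centrings. Vimentin mRNA read 11.39, 11.73 and 11.73 in DTPs, against 8.99, 8.92 and 8.97 in parental cells, a 6.30-fold rise (limma adjusted p = 2.0e-10). The mean of its 2 probe sets gave a log2 difference of 1.18, against 2.65 for the one taken. The other was thus not higher but lower in DTPs, and it was not called. Vimentin is also abundant in fibroblasts, of whose 8 markers COL1A1 alone was called, as given above.

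**Figure D4:**
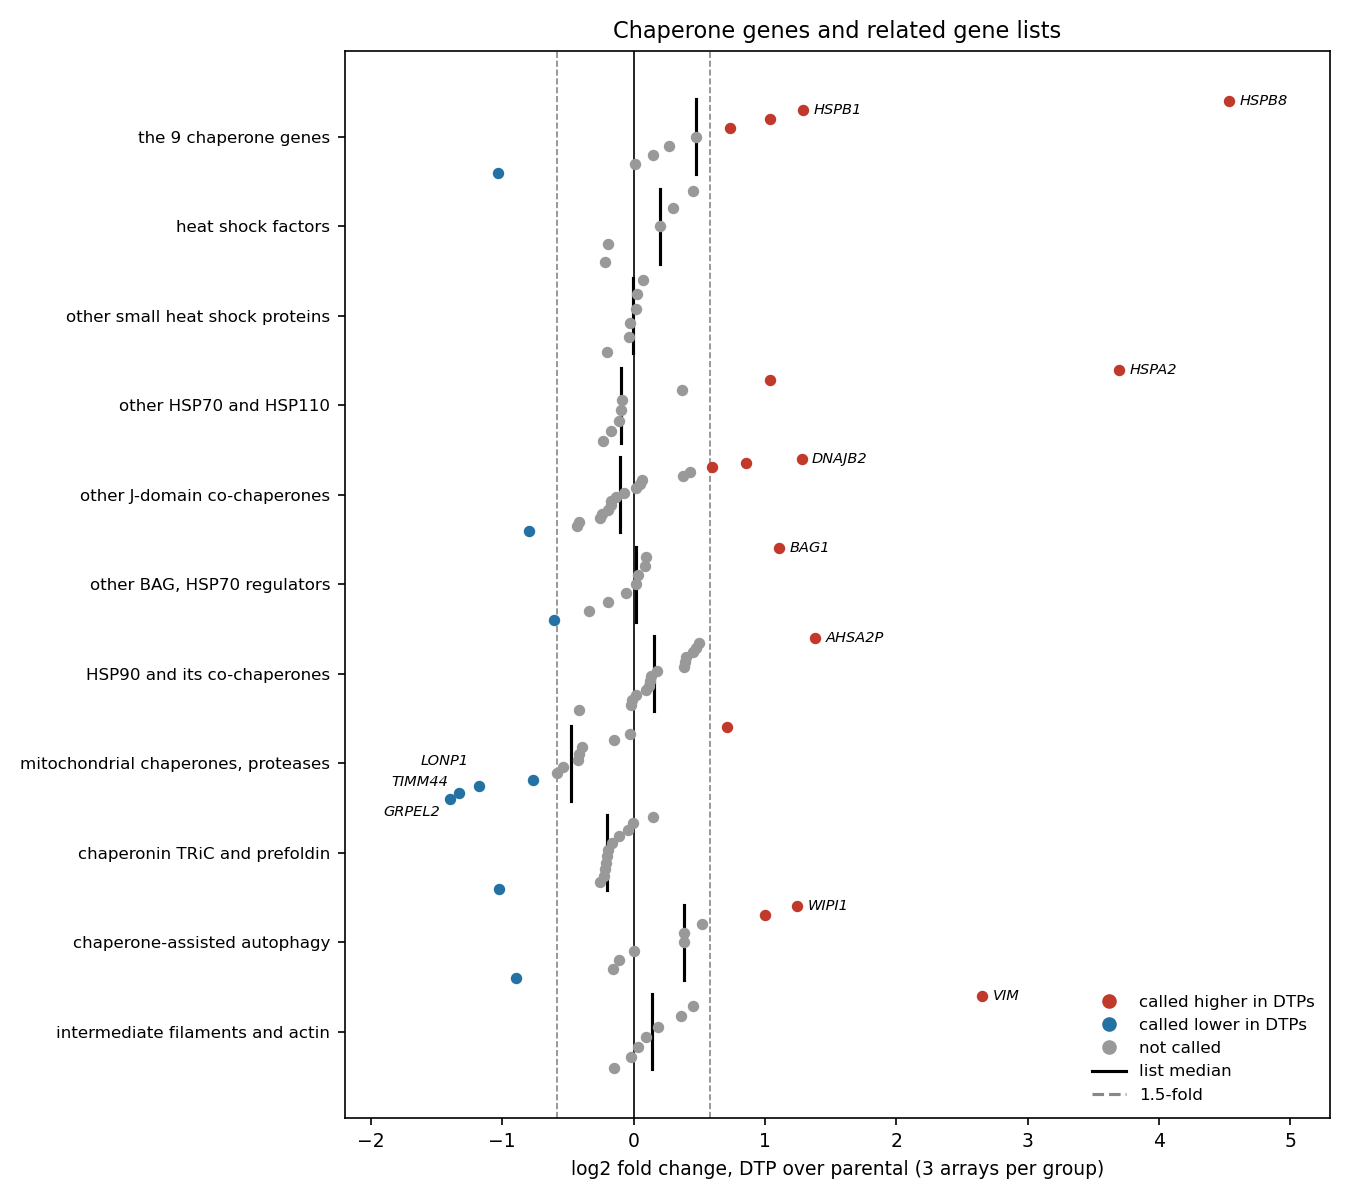
Log2 difference, DTP over parental, of each gene in the member list and the 10 further lists (rows), with the list median as a vertical bar and 1.5-fold as dashed lines; red is called higher in DTPs, blue called lower, grey not called. The mitochondrial row has 4 called lower and a median of -0.48, while the member row has 4 called higher and a median of 0.48.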

How the data were processed

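Total RNA of 3 DTP and 3 parental cultures was read on Affymetrix Human Genome U133 Plus 2.0 arrays, whose probes favour the 3′ ends of mRNAs. The authors deposited log2 values per probe set, made by RMA with the affy package and quantile normalized, per the labels and methods (versions: not given in the sources used here). Since RMA gives no detection call, probe sets with no target still have a value, and quantile normalization hides a change in total mRNA. The number of arrays limits the precision.

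Of 54675 probe sets, 62 were controls, 41091 had 1 gene symbol, 1801 several and 11721 none in the platform table used. Groups were compared with limma 3.58.1 in R 4.3.3 (two-sided, no covariate), over 19775 genes and separately over 54613 probe sets, with Benjamini-Hochberg adjustment. Calls needed both an adjusted p below 0.05 and more than a 1.5-fold difference, as in the study's methods. For 419 genes only _x_at probe sets were at hand. The tests were checked on simulated data.

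The members and the gene lists were chosen with earlier results of these data known. From each list the text names up to 3 called genes with the largest difference, or, with no called gene, the one of lowest p. DNAJB6, DNAJC19, HSPE1, HSPD1, HSF1, HSPB2, KRT7 and COL1A1 lie outside this rule and were chosen after their values were seen. Alternatives were other scalings, left-out arrays, probe set rules, variance models, thresholds and the methods' t-test. Motifs were searched in RefSeq promoter sequences with Python 3.11.15.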

Additional observations from a re-analysis of the deposited data

How the results depend on the processing

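HSPB8, HSPB1 and DNAJA1 were called higher and HSPA9 lower under every alternative tried, and HSPH1 under every one but the 2-fold minimum. For HSPB8 the alternative that left out dim probe sets says nothing. It kept probe sets whose mean over all arrays reached the all-probe-set median. The HSPB8 probe set passed only through DTPs (mean 11.14, against 6.61 in parental cells). Of 138 counts recomputed under alternatives, 127 stayed within 1.5 times the value reported, and of 144 member log2 differences 140 kept their direction and their side of the threshold. Scaling moved the balance of calls. Of all called genes 56.9% were higher in DTPs, against 70.9% with arrays centred on 52 ribosomal protein genes and 74.2% with arrays centred on 18 spike-in probe sets, under which 795 genes were called lower. These centrings moved the median log2 difference of all genes by 0.117 and 0.148, and every member's estimate with it, and CRYAB was then called higher. The spike-in mean itself was 11.01 ± 0.11 in DTPs and 11.16 ± 0.10 in parental cells (SD, n = 3 each). The groups overlapped in it (two-sided exact permutation p = 0.2), so this centring rests on an offset near the spread between arrays. With no fold minimum 8797 genes passed (4043 higher, 4754 lower), and so did 16 member probe sets (13 higher). With a 2-fold minimum 1110 genes passed (679 higher, 431 lower), and 6 member probe sets (4 higher). The sign of BAG3 was negative with array weights (-0.0088) and without DTP replicate 3, and its log2 difference ran between -0.029 and 0.043 over the arrays left out, and the cause was not tested. Leaving out each array gave 1552 to 1657 genes higher and 1134 to 1352 lower, with 4 members higher and 1 lower each time. Arrays of the same replicate number had deviations correlated at -0.127, 0.0826 and -0.0462, and arrays of different numbers between -0.12 and 0.166. So few values of either sign cannot decide whether the replicate numbers pair the samples. With the replicate number as a block 1597 genes were called higher and 1212 lower, as without it, with 4 members higher and 1 lower. Values under or close to the all-probe-set median, such as those of parental HSPB8 and of both CRYAB groups, have no firm level on these arrays.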

Other observations

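In some genes of the lists the probe sets differed. Of the 63 listed genes that were not called and had more than 1 probe set, 12 (19%) had another probe set that was called, against 911 of 8689 such genes on the whole array (10.5%, no test made), giving 14 probe sets higher in DTPs and 1 lower, and in 5 of these genes the probe set taken pointed the other way. For HSPD1, whose probe set taken was level, the dim 241716_at averaged 7.99 in DTPs and 6.69 in parental cells (log2 difference 1.31 ± 0.15, SE, limma adjusted p = 2.5e-05 over probe sets). For HSPA4, an HSP110, 208814_at averaged 9.98 in DTPs and 9.29 in parental cells (0.69 ± 0.10, SE, adjusted p = 1.7e-04), while the other 3 probe sets lay between -0.11 and 0.00. SQSTM1, the autophagy receptor p62, was not called by the probe set taken (0.39 ± 0.08, SE), but 213112_s_at and 244804_at were, at 0.59 and 0.81. GRPEL1, the main nucleotide exchange factor of mitochondrial HSP70, had the 1 called probe set that was lower, 212434_at, which averaged 9.79 in DTPs and 10.48 in parental cells, against 10.15 in DTPs and 10.57 in parental cells for the probe set taken. These genes were chosen after their values were seen, and which transcripts the other probe sets read was not tested.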
